A study of Homo sapiens with 6 samples.

Results

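The genes described here are CDK15 and its relatives among the cyclin-dependent kinases, CDK14, CDK16, CDK17 and CDK18, together with CCNY and CCNYL1, which encode cyclin Y and a cyclin Y-like protein. They are 7 of the 62754 genes in the count table, taken by symbol, and all 7 were found. CDK15 was chosen by its lower count in the same comparison that is reported here, so its values are given as a description without a test; the other 6 genes came in as members of its family. All 7 held at least 10 counts in all 6 libraries, so none was low.

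RNA sequencing was done on HK-2, an established line of human proximal tubule cells from the kidney. All libraries came from cells treated with Cisplatin, a platinum drug that crosslinks DNA and injures the renal tubule. The cells were also transfected with a negative control siRNA (CP+siNC, 3 libraries) or with siRNA against NAT10 (CP+siNAT10, 3 libraries), and the question was what lowering NAT10, the RNA acetyltransferase that makes N4-acetylcytidine, changed in injured cells. Total counts were 19321665, 21602988 and 19464027 in CP+siNC and 20793709, 21531774 and 25192736 in CP+siNAT10. All 6 libraries shared Cisplatin, so cells without the drug could not be compared here. The sequence of the siRNA was not given in the sources used here, so effects of lower NAT10 and of the siRNA itself cannot be told apart. Nothing stated that the replicates were separate cultures, and the p-values measure only the spread between these libraries, which may be technical. In bulk RNA, fewer cells of a type and less RNA per cell cannot be told apart.

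Most cyclin-dependent kinases need a cyclin partner to work, and a short helix of the kinase that faces the cyclin gives the subfamilies their names. In CDK1 and CDK2 the helix is called PSTAIRE. It is called PFTAIRE in CDK14 and CDK15 and PCTAIRE in CDK16, CDK17 and CDK18. Cyclin Y is held at the plasma membrane by a lipid anchor and activates CDK14 and CDK16 there. With CDK14 it phosphorylates LRP6, the Wnt co-receptor, around mitosis, and 14-3-3 proteins bind these cyclin Y complexes. CDK16, CDK17 and CDK18 are best known from neurons and testis, and CDK15 is among the least studied kinases of the family.

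The 21 coding bases of this helix are shown because their second codon sets the 2 subfamilies apart. They were read 5′ to 3′ on the coding strand from the transcripts of GENCODE release 29 (GRCh38), and capitals mark the second codon.

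CDK14, chr7:90790631-90790651, plus strand: cctTTCacagctatcagggaa

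CDK15, chr2:201812541-201812561, plus strand: ccaTTTacagctatccgagaa

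CDK16, chrX:47225081-47225101, plus strand: cccTGCaccgccatccgggaa

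CDK17, chr12:96298870-96298890, minus strand: cccTGCacagctataagagaa

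CDK18, chr1:205526158-205526178, plus strand: cccTGCactgccatccgagag

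The marked codon was TTC or TTT, which encode phenylalanine, in CDK14 and CDK15, and TGC, which encodes cysteine, in the other 3. Each stretch lay within 1 coding exon: exon 5 of 15 in CDK14, exon 4 of 14 in CDK15, exon 6 of 16 in CDK16, exon 7 of 16 in CDK17 and exon 6 of 16 in CDK18. Likeness over all 21 bases, the marked codon included, did not follow the subfamilies. CDK14 shared 17 of the 21 bases with CDK15 and also with CDK17, and CDK17 shared 16 each with CDK15, CDK16 and CDK18. CDK16 and CDK18 shared the most, 18, and CDK14 and CDK18 the fewest, 14, of the 10 pairs. The helix was in all 4 coding transcripts annotated for CDK15, and in 4 of 9 for CDK14, 6 of 14 for CDK16, 3 of 7 for CDK17 and 5 of 7 for CDK18. Coding transcripts annotated only in part were not set aside, so a helix can be missing for that reason. Counts per gene do not say which of these transcripts was present.

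NAT10 (ENSG00000135372, chr11:34105617-34147670), the target of the siRNA, was read first as a check of the labels. Levels in CPM, that is counts scaled to a common library size with TMM factors, were 75.8, 71.4 and 73.2 in CP+siNC and 41.3, 40.5 and 42.4 in CP+siNAT10. The groups did not overlap, and the mean of the silenced group was 56.4% of the control (log2 fold change -0.82, SE 0.04, edgeR adjusted p = 2.79e-15).

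The PFTAIRE pair moved in opposite directions. CDK15 (ENSG00000138395, chr2:201790461-201895550, plus strand) stood at 4.09, 5.04 and 4.10 CPM in CP+siNC and at 1.47, 1.56 and 1.58 CPM in CP+siNAT10. The 3 silenced libraries lay close together and far under the lowest control library, and replicate 2 was the highest of the controls. These levels rested on 77, 108 and 79 counts against 31, 34 and 40. The mean was 4.41 ± 0.55 CPM (SD, n = 3) in CP+siNC and 1.54 ± 0.06 CPM (SD, n = 3) in CP+siNAT10, that is 34.8% of the control. The fit gave a log2 fold change of -1.52 (SE 0.16), and 66 of the 19874 genes tested had a larger absolute value. It ranged from -1.58 to -1.41 over 14 other settings. Since this fall put CDK15 on the list, no p-value is given for it.

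CDK14 (ENSG00000058091, chr7:90466424-91210585, plus strand), the kinase that acts with cyclin Y on LRP6, stood at 1.59, 1.26 and 1.66 CPM in CP+siNC and at 2.99, 2.42 and 3.16 CPM in CP+siNAT10. Every silenced library was above every control library, with 30, 27 and 32 counts in the controls and 63, 53 and 80 after silencing. CDK14 rose by 0.94 on the log2 scale (SE 0.18, edgeR adjusted p = 1.20e-04), to 190% of the control mean. It was higher in 3 of 3 silenced libraries, and it was called in all 14 other settings. Part of its gene is shared with CLDN12, a claudin gene on the same strand whose annotated span overlaps that of CDK14: 127 of the 7274 windows of 75 bases in CDK14 transcripts (1.75%) were also in CLDN12 transcripts. CLDN12 and the next genes named here were chosen after their values were seen. CLDN12 moved the other way, from 37.2 ± 0.05 to 31.9 ± 1.46 CPM (SD, n = 3 each; log2 fold change -0.22, SE 0.05, edgeR adjusted p = 6.30e-04). The span of CDK14 also overlaps ENSG00000273299 on the same strand, with 201 counts against 285 of CDK14 (70.5%), and ENSG00000223969 on the opposite strand, with 228 counts (80.0%). Neither shared a 75-base window with CDK14, and neither was called (log2 fold changes -0.44, SE 0.21, edgeR adjusted p = 0.0969, and -0.22, SE 0.19, adjusted p = 0.382).

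**Figure D1:**
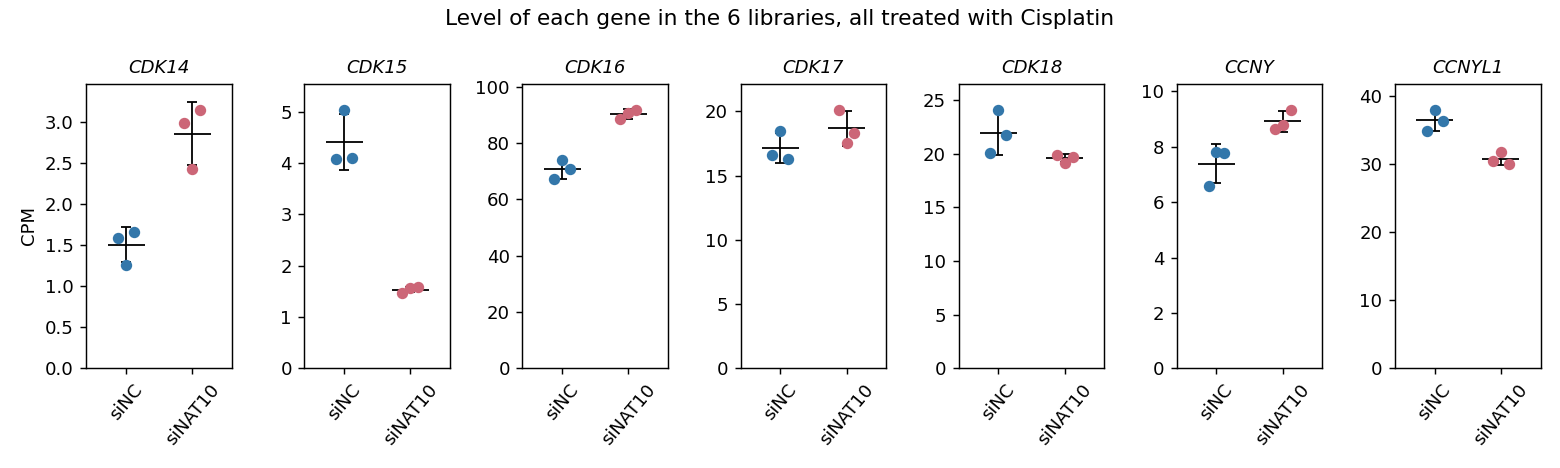
Level of the 7 genes in CPM (vertical axes, each starting at 0) in the 3 CP+siNC and the 3 CP+siNAT10 libraries; points are libraries, horizontal lines are group means and bars are 1 SD. CDK15 stood at 4.09 to 5.04 CPM in CP+siNC and at 1.47 to 1.58 CPM in CP+siNAT10, and CDK14 at 1.26 to 1.66 and 2.42 to 3.16 CPM.

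The PCTAIRE kinases had higher levels and smaller fold changes. CDK16 (ENSG00000102225, chrX:47217860-47229415, plus strand), which cyclin Y also activates and which is needed for sperm formation, stood at 67.3, 73.8 and 70.9 CPM in CP+siNC and at 88.5, 90.5 and 92.0 CPM in CP+siNAT10. All 3 silenced libraries were above all 3 controls. It rose by 0.35 on the log2 scale (SE 0.04, edgeR adjusted p = 2.42e-08), to 128% of the control. With 1267 to 2331 counts per library it was the most precisely measured of the 7 genes.

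CDK17 (ENSG00000059758, chr12:96278261-96400074, minus strand) stood at 16.6, 18.5 and 16.3 CPM in CP+siNC and at 20.1, 17.5 and 18.3 CPM in CP+siNAT10. The groups overlapped. Its log2 fold change of 0.12 (SE 0.07) had a 95% interval of -0.02 to 0.26 and was not called (edgeR adjusted p = 0.164).

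CDK18 (ENSG00000117266, chr1:205504596-205532785, plus strand) stood at 20.0, 24.1 and 21.7 CPM in CP+siNC and at 19.9, 19.1 and 19.7 CPM in CP+siNAT10. The lowest control library, at 20.0 CPM, was just above the highest silenced one, at 19.9 CPM. CDK18 fell by 0.17 on the log2 scale (SE 0.07, edgeR adjusted p = 0.0354), in 3 of 3 silenced libraries. This call was lost in 7 of 14 other settings, with adjusted p from 0.00892 to 0.275 over all 14. The highest of these came without CP+siNC replicate 2, where the log2 fold change was -0.10. Without CP+siNAT10 replicate 1, 2 or 3 the adjusted p was 0.0503, 0.109 and 0.0620.

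The cyclin genes also went apart. CCNY (ENSG00000108100, chr10:35247025-35572667, plus strand), the membrane-anchored cyclin Y, stood at 6.59, 7.80 and 7.79 CPM in CP+siNC and at 8.64, 8.78 and 9.35 CPM in CP+siNAT10. It rose by 0.27 on the log2 scale (SE 0.10, edgeR adjusted p = 0.0210), with all 3 silenced libraries above the controls. The call was lost in 3 of 14 other settings: with DESeq2 (adjusted p = 0.112), after leaving out CP+siNC replicate 1 (0.137) and after leaving out CP+siNAT10 replicate 3 (0.0843), in a range from 0.0102 to 0.137 over all 14. On the opposite strand, CCNY-AS1, chosen after its values were seen, held 255 counts against 1052 of CCNY, 24.2%. It leaned the same way as CCNY and was not called (log2 fold change 0.36, SE 0.19, edgeR adjusted p = 0.130). The strand setting of the counting was not given in the sources used here, and counts of overlapping genes are uncertain without it, but no window of 75 bases in annotated transcripts of CCNY, read on either strand, was in another gene.

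CCNYL1 (ENSG00000163249, chr2:207711540-207761839, plus strand) encodes a relative of cyclin Y that can take its place in mouse development. It stood at 34.9, 38.1 and 36.4 CPM in CP+siNC and at 30.4, 31.8 and 30.1 CPM in CP+siNAT10, with every silenced library under every control. It fell by 0.25 on the log2 scale (SE 0.05, edgeR adjusted p = 1.87e-04). Of the 4817 windows of 75 bases in its transcripts, 540 (11.2%) were also found in 4 other genes, 490 of them in an antisense gene inside CCNYL1 that held 179 counts against 4274. The other 5 members, CDK15, CDK16, CDK17, CDK18 and CCNY, shared no such window with any annotated gene, and no window was shared between members.

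Among all genes tested, 8771 of 19874 (44.1%) were called at an adjusted p under 0.05, 4331 (21.8%) higher and 4440 (22.3%) lower in CP+siNAT10. With library size as the only scaling 5050 were higher and 3786 lower. Of the 7 genes, CDK15 included, 6 were called, 3 higher and 3 lower. The 7 were chosen with results of this comparison known, and nothing is read from that count. The fold changes of CDK16, CDK17, CDK18, CCNY and CCNYL1 were of a common size here: 28.2% to 68.7% of all genes tested had a larger absolute log2 fold change. For CDK14 this share was 3.00% and for CDK15 0.332%.

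Levels can be compared between genes only per length, as CPM per kilobase of the gene length in the count table. In CP+siNC the order was CDK16 at 10.8 ± 0.503, CCNYL1 at 7.75 ± 0.338, CDK18 at 3.21 ± 0.300, CDK17 at 2.65 ± 0.181, CCNY at 1.21 ± 0.114, CDK15 at 0.715 ± 0.0888 and CDK14 at 0.215 ± 0.0305 CPM per kilobase (SD, n = 3). No neighbours in this order overlapped between libraries, and the closest were CDK18, with a lowest library of 2.93, and CDK17, with a highest of 2.85. In CP+siNAT10 the order was CDK16 at 13.8 ± 0.263, CCNYL1 at 6.54 ± 0.196, CDK17 at 2.89 ± 0.207, CDK18 at 2.86 ± 0.0570, CCNY at 1.46 ± 0.0611, CDK14 at 0.407 ± 0.0547 and CDK15 at 0.249 ± 0.00901 (SD, n = 3). There CDK17 and CDK18 overlapped and did not differ beyond their spread. Among the genes tested, CDK16 stood above 78.4% by its level per length in CP+siNC, and CDK14 above 5.80%.

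**Figure D2:**
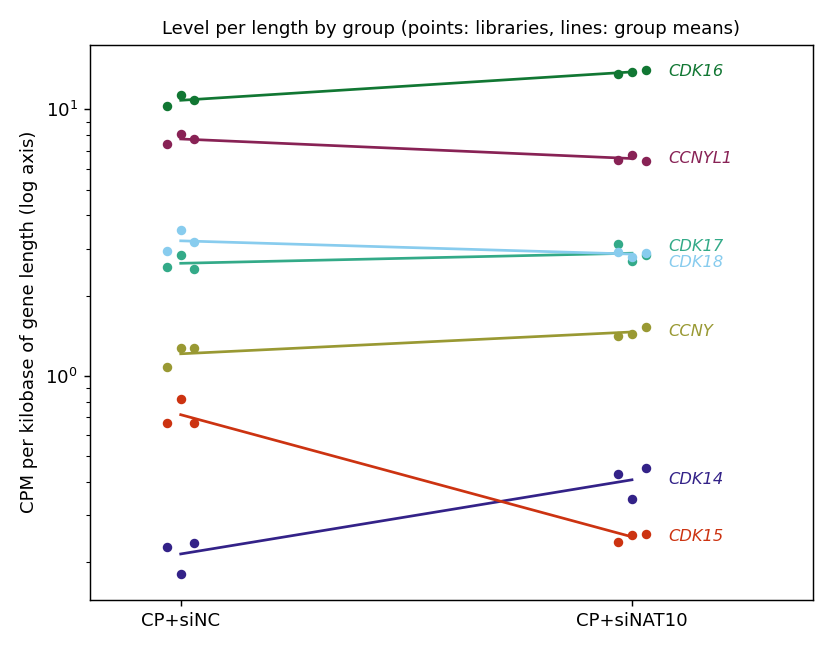
Level of the 7 genes in CPM per kilobase of gene length (vertical log axis) in CP+siNC and CP+siNAT10; points are libraries and lines join the group means. The lines of CDK14 and CDK15 cross: CDK15 was above CDK14 in CP+siNC (0.715 against 0.215) and under it in CP+siNAT10 (0.249 against 0.407).

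The PFTAIRE pair thus changed places. Per length, CDK15 was 2.92, 4.55 and 2.81 times CDK14 in the CP+siNC libraries and 0.559, 0.729 and 0.568 times CDK14 in the CP+siNAT10 libraries. Their summed level was 0.929 ± 0.0590 in CP+siNC and 0.656 ± 0.0545 CPM per kilobase in CP+siNAT10 (SD, n = 3), so the gain of CDK14 was smaller than the loss of CDK15. As this ratio and this sum hold the gene that was selected on its fall, they carry no test.

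Across the 5 kinase genes the makeup was led by CDK16. Its share of their summed level per length was 61.5% ± 0.873 in CP+siNC and 68.3% ± 1.25 in CP+siNAT10 (SD, n = 3). CDK15 made up 4.05% ± 0.292 and 1.23% ± 0.0444, and CDK14 1.23% ± 0.229 and 2.01% ± 0.246. CDK18 held 18.2% ± 0.659 and 14.2% ± 0.181, while CDK17 held 15.0% ± 0.506 and 14.3% ± 0.982. The sum of the 5 was 16.7, 18.7 and 17.5 CPM per kilobase in CP+siNC and 20.2, 20.0 and 20.5 in CP+siNAT10. Between the cyclins, CCNYL1 was 6.88, 6.33 and 6.07 times CCNY per length in CP+siNC and 4.57, 4.70 and 4.18 times CCNY in CP+siNAT10. CCNY thereby went from 13.5% ± 0.731 to 18.3% ± 0.932 of their summed level (SD, n = 3).

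The other cyclin-dependent kinases were read as a background for the family. All 16 were tested, 7 rose, 4 fell and 5 were not called, with a median log2 fold change of 0.10 against 0.01 over all genes, of which 21.8% rose and 22.3% fell. The lists below stand beside the same shares. CDK1, the mitotic kinase, went from 301 ± 15.9 to 219 CPM and fell by 0.46 (SE 0.04, edgeR adjusted p = 2.28e-11). CDK13, which phosphorylates RNA polymerase II, rose by 0.32 (SE 0.05, adjusted p = 1.57e-06) and CDK20 by 0.24 (SE 0.07, adjusted p = 0.00742), a call lost without CP+siNAT10 replicate 1 (adjusted p from 0.00131 to 0.0615 over 14 settings). CDK11A rose by 0.26 (SE 0.04, adjusted p = 1.35e-06), but it and CDK11B, the highest of the list per length at 158 CPM per kilobase, are near-identical copies and their split is uncertain. Fitted changes of the 16 ran from -0.46 to 0.32. CDK14 and CDK15 lay outside that range, CDK15 having been selected on it, and CDK16 lay just above it.

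**Figure D3:**
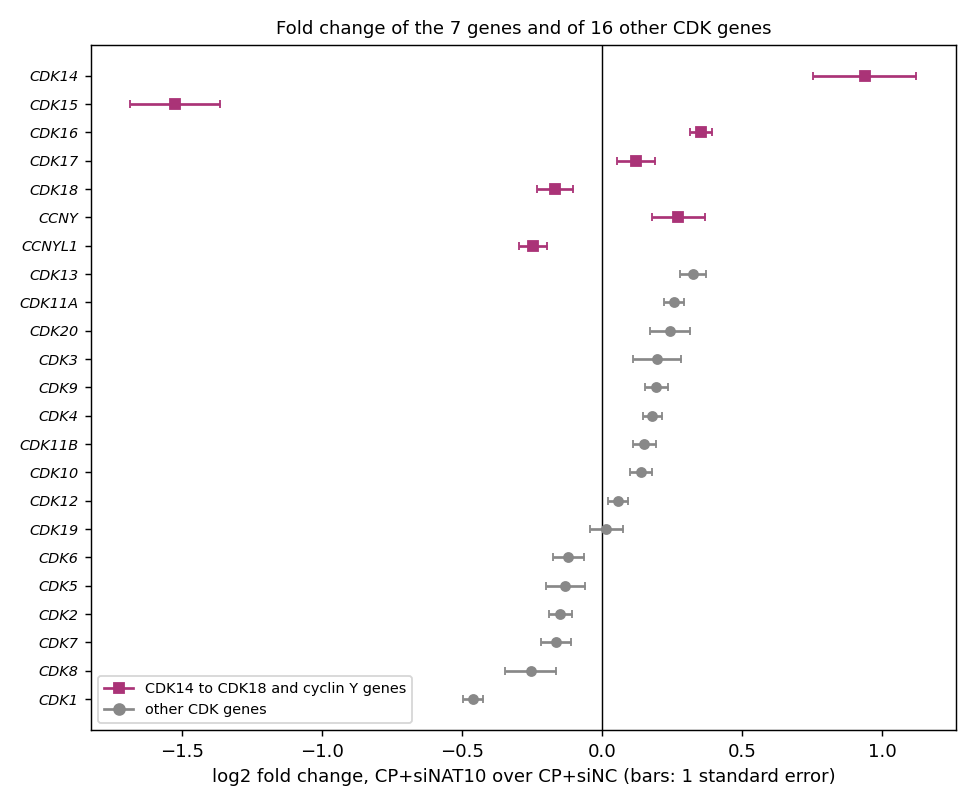
Log2 fold change of CP+siNAT10 over CP+siNC (horizontal axis) for the 7 genes (squares) and the 16 other CDK genes (circles); bars are 1 standard error. CDK15 at -1.52 and CDK14 at 0.94 stand at either end, and the other CDK genes lie between -0.46 for CDK1 and 0.32 for CDK13.

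CDK5 pairs with activators that are not cyclins, and its 2 activator genes were listed too. CDK5R1 was at 2.92 CPM per kilobase in CP+siNC with a log2 fold change of -0.10 (SE 0.08, edgeR adjusted p = 0.357), and CDK5R2 was low.

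Proteins of the 14-3-3 family bind the phosphorylated cyclin Y complexes. Of the 7 genes 4 rose, 1 fell and 2 were not called, with a median of 0.09. YWHAG rose by 0.19, YWHAH by 0.18 and YWHAB by 0.16 on the log2 scale (SE 0.03 each, edgeR adjusted p from 2.35e-05 to 1.69e-04), and YWHAQ fell by 0.12 (SE 0.04, adjusted p = 0.00606). YWHAE, the highest per length at 189 CPM per kilobase, rose by 0.09 (SE 0.03, adjusted p = 0.0270), a call lost when CP+siNC replicate 2 or 3 or CP+siNAT10 replicate 1 or 3 was left out (up to adjusted p = 0.119). With library size as the only scaling the call of YWHAQ was lost (adjusted p = 0.0591). Its log2 fold change stayed between -0.14 and -0.09 over 14 other settings.

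The Wnt receptor and signalling list holds the pathway in which CDK14 and cyclin Y act. Of 24 genes 22 were tested, 9 rose, 7 fell and 6 were not called, and the median was 0.04. LRP6 itself, named for its role after its value was seen, was at 55.2 ± 3.10 CPM in CP+siNC and 53.7 CPM in CP+siNAT10 and was not called (log2 fold change -0.04, SE 0.05, edgeR adjusted p = 0.493). CSNK1G3, a casein kinase that also phosphorylates LRP6, fell by 0.64 (SE 0.05, adjusted p = 8.78e-12). The receptor FZD2 fell by 0.54 (SE 0.06, adjusted p = 3.83e-08) and LGR4, a receptor for R-spondins, by 0.45 (SE 0.12, adjusted p = 0.00243). AXIN1, the scaffold of the complex that degrades beta-catenin, rose by 0.44 (SE 0.06, adjusted p = 3.45e-07). FZD6 was the highest of the list per length at 28.5 CPM per kilobase and was not called (log2 fold change -0.07, SE 0.04, adjusted p = 0.150).

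Genes known as Wnt targets were also listed. Of 12 genes 10 were tested and 2 were low; 1 rose, 3 fell and 6 were not called, with a median of -0.17. RNF43, which removes Wnt receptors, fell by 0.70 (SE 0.19, edgeR adjusted p = 0.00352), the transcription factor SP5 by 0.45 (SE 0.16, adjusted p = 0.0260) and TCF7 by 0.36 (SE 0.09, adjusted p = 0.00269). The call of SP5 was lost in 6 of 14 other settings (adjusted p from 0.0158 to 0.134): with no filter, with DESeq2, and when CP+siNC replicate 1 or 3 or CP+siNAT10 replicate 2 or 3 was left out. AXIN2 rose by 0.32 (SE 0.12, adjusted p = 0.0326), a call lost with DESeq2 and when any library other than CP+siNC replicate 3 was left out (adjusted p from 0.0175 to 0.191 over 14 settings). DKK1, a secreted inhibitor, was the highest per length at 11.2 CPM per kilobase and was not called (log2 fold change -0.13, SE 0.06, adjusted p = 0.0622).

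Partners and substrates reported for these kinases were 6 genes, of which 1 rose, 3 fell and 2 were not called, with a median of -0.07. CDKN1B, the p27 inhibitor that CDK16 phosphorylates, rose by 0.31 (SE 0.04, edgeR adjusted p = 4.86e-08). CCND3, a cyclin that binds CDK14, fell by 0.31 (SE 0.06, adjusted p = 2.63e-05). PRC1, which bundles microtubules in the dividing cell, fell by 0.23 (SE 0.03, adjusted p = 1.74e-06) and CALD1, the actin regulator caldesmon, by 0.23 (SE 0.04, adjusted p = 5.15e-06). TAGLN2 was the highest per length at 106 CPM per kilobase, with a log2 fold change of 0.08 (SE 0.03, adjusted p = 0.0645).

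Proliferation genes were read because CDK14 activity follows the cell cycle. Of 10 genes 9 fell and none rose, with a median of -0.25, where 22.3% of all genes fell and 21.8% rose. PLK1 fell by 0.49 (SE 0.05, edgeR adjusted p = 1.31e-08), CCNB1 by 0.43 (SE 0.03, adjusted p = 1.30e-11), CDC20 by 0.38 (SE 0.05, adjusted p = 4.21e-07) and TOP2A by 0.36 (SE 0.03, adjusted p = 7.21e-10). MKI67, the highest per length at 165 CPM per kilobase, fell by 0.17 (SE 0.03, adjusted p = 1.35e-04). The summed level of the list was 5603, 5385 and 5315 CPM in CP+siNC and 4789, 4821 and 4874 CPM in CP+siNAT10. Its part in the values of the 7 genes was not tested.

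The surroundings of CDK15 on chromosome 2 were described next. Of 48 other genes within 500 kb of its span 14 were tested: 7 fell, 2 rose and 5 were not called, with a median of -0.26, beside 22.3% lower and 21.8% higher over all genes tested. MPP4, a membrane scaffold gene on the minus strand whose start lay 91.8 kb before that of CDK15, stood at 3.68 ± 0.08 CPM in CP+siNC and 1.58 ± 0.31 CPM in CP+siNAT10 (SD, n = 3). It fell by 1.20 on the log2 scale (SE 0.17, edgeR adjusted p = 8.50e-07), on 219 counts in all control and 109 in all silenced libraries. Its span overlaps that of ENSG00000287133 on the opposite strand, with 278 and 239 counts, so the counts and the fall of MPP4 are uncertain.

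Farther away, FZD7, a Wnt receptor with a start 243 kb beyond that of CDK15, fell by 0.38 (SE 0.05, edgeR adjusted p = 1.26e-06). The ciliary gene TMEM237 fell by 0.26, the pseudogene ENO1P4 inside it by 0.46, ENSG00000287133 by 0.41 and BMPR2 by 0.40. TMEM237 overlaps ENO1P4 and ENSG00000287133, TRAK2 overlaps STRADB and NOP58 overlaps ENSG00000286223, and the counts of all of these are uncertain. The call of ENSG00000287133 was lost with DESeq2 and without CP+siNAT10 replicate 3. CASP8 rose by 0.24 and TRAK2 by 0.22. STRADB, NOP58, ENSG00000286223 and ENSG00000273456 were not called, with log2 fold changes from -0.26 to 0.05.

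**Figure D4:**
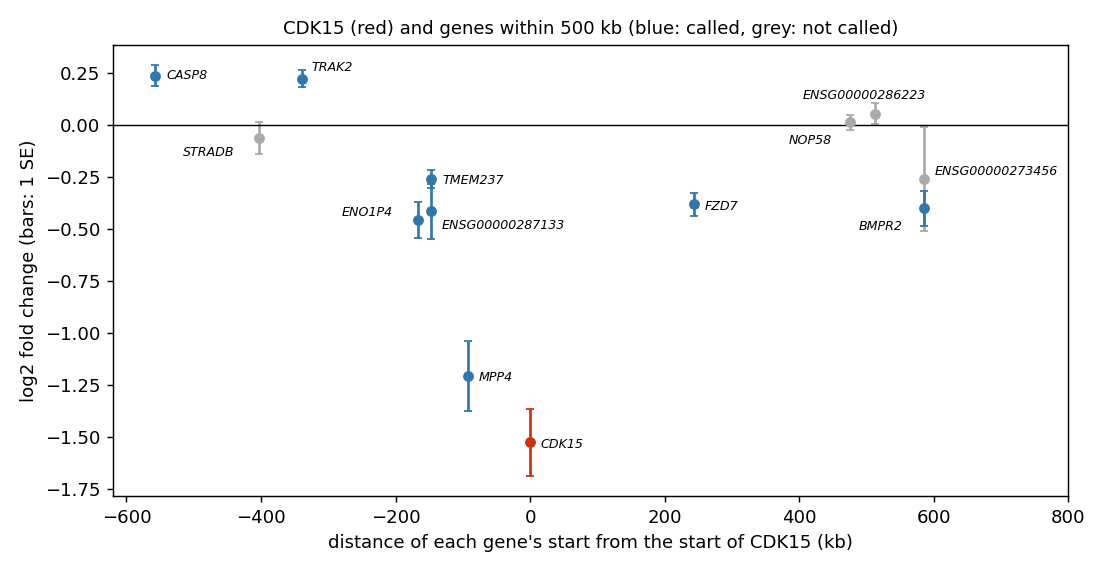
Log2 fold change (vertical axis, bars 1 standard error) of CDK15 and of 12 of the 14 other tested genes within 500 kb of its span, against the distance of each gene's start from that of CDK15 in kb. MPP4 at -1.20 and CDK15 at -1.52 stand under the other genes shown, which lie between -0.46 and 0.24.

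The 5 genes with at least 1 CPM whose log2 CPM, centred on each gene's own mean over the 6 libraries, was closest to that of CDK15 were HPRT1, CCNG1, CTSS, CCND1 and IFIT3, on chromosomes X, 5, 1, 11 and 10. The Euclidean distances were 0.180, 0.218, 0.221, 0.224 and 0.242. HPRT1 stood at 44.0, 48.1 and 44.0 CPM in CP+siNC and 17.2, 17.0 and 16.8 CPM in CP+siNAT10, with replicate 2 the highest control as for CDK15. Since the measure uses the same comparison, the likeness of these 5 is a description over 6 libraries and says mainly that they fell by a like amount, from 1.34 for IFIT3 to 1.61 for CCNG1 on the log2 scale (fitted values -1.34 and -1.61).

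Promoter windows of the 7 genes were compared because genes of a family need not share a promoter type. RefSeq (GRCh38.p14) gave 13 windows for the 7 genes, each of 250 bases before and 50 after a start. CG dinucleotides, which cluster in the promoters of widely used genes, numbered 1 to 2 in the 3 windows of CDK15, which overlap each other, and 2 and 5 in the 2 windows of CDK14, against a median of 14 over 35116 windows. CDK17 held 42, CCNYL1 28, CDK18 10, the 3 windows of CDK16 4 to 28, and those of CCNY 4 and 41. Of all windows 3.96% had fewer than the lowest window of CDK15 and 94.2% had fewer than that of CDK17. Stretches of 100 bases before the start that overlap no annotated exon are shown for the PFTAIRE pair and for CDK17, from the CG-poor to the CG-rich end, with CG in capitals.

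CDK15, chr2:201806275-201806374, plus strand: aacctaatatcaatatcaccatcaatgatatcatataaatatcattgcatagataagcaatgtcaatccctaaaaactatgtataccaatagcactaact

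CDK14, chr7:90709151-90709250, plus strand: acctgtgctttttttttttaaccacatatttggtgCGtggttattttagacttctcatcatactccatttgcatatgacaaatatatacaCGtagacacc

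CDK17, chr12:96400561-96400660, minus strand: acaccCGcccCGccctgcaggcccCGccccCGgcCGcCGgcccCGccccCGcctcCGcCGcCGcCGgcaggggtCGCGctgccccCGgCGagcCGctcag

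They hold 0, 2 and 17 CG dinucleotides. The starts behind the windows of CDK15 and CDK14 lie 16.0 kb and 243 kb inside the genes as counted, so other starts exist. On either strand of the 300-base windows, TATAAA was found for CDK15 only among the 7 genes, at 1 place that 2 of its 3 overlapping windows cover, and in 11.5% of all windows. CCAAT was in 7 of the 13 windows, from CDK15, CDK16, CDK18 and CCNYL1, beside 34.6% of all windows. The 3 windows of CDK15 cover the same 1 place. GGGCGG was in 6 of the 13 windows, from CDK16, CDK17, CDK18, CCNY and CCNYL1, beside 45.0% of all. CACGTG was in the window of CCNYL1 (7.26% of all). TTTGAA (15.2% of all) and ATCAAAG (2.62% of all) were in none. A match of letters is a description and not a binding site.

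Markers were read as a check of the cell label. Of 11 proximal tubule genes 5 were tested and 6 were low, among them the endocytic receptors LRP2 and CUBN and the transporters SLC34A1, SLC22A6 and SLC22A8. PAX8, a transcription factor of the tubule, was present at 31.4 CPM in CP+siNC. PAX8 rose by 0.59 (SE 0.06, edgeR adjusted p = 1.58e-09) and the glucose transporter SLC5A2 by 0.31 (SE 0.09, adjusted p = 0.00363), while GGT1, the highest per length at 7.59 CPM per kilobase, fell by 0.28 (SE 0.05, adjusted p = 9.92e-05). SLC5A2 stood at 9.30 CPM in CP+siNC, and the water channel AQP1 was at 1.03 CPM and was not called.

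Of 6 epithelial genes 5 were tested, led by KRT8 at 1455 CPM in CP+siNC, and CDH1 was low. KRT18 fell by 0.36, KRT7 by 0.15 and EPCAM rose by 0.31. All 3 endothelial genes were low, as were 3 of 4 fibroblast genes, leaving COL1A1 at 10.5 CPM, which rose by 0.38. Of the 2 blood genes, CD68, also a lysosomal gene of many cells, led with 207 CPM and rose by 0.40, and PTPRC, at 0.418 CPM, rose by 0.96, a call lost in 6 of 13 other settings with log2 fold changes from 0.46 to 1.21. The blood list summed to 208, 197 and 215 CPM in CP+siNC and 288, 265 and 268 CPM in CP+siNAT10. Of the 3 neuron genes SNAP25 led with 16.3 CPM and rose by 0.30, RBFOX3 at 1.53 CPM fell by 0.75, a call lost in 3 of 13 other settings, and SYP was not called. The part of these markers in the values of the 7 genes was not tested.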

How the data were processed

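The deposited table held raw counts per gene for 6 libraries of HK-2 cells. Per the labels, the authors made a stranded mRNA library with a KC-Digital kit, and the submitters' processing notes name Trimmomatic 0.36, STAR 2.5.3a, featureCounts of Subread 1.5.1, GRCh38 and edgeR 3.12.1. The kit adds molecular identifiers meant for removing PCR duplicates. Whether the deposited counts were merged by them, the strand setting and the annotation release were not given in the sources used here.

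Counts were tested with edgeR 4.0.16 in R 4.3.3: filterByExpr (10 counts as its minimum), TMM scaling, glmQLFit and glmQLFTest (two-sided), group only, with Benjamini-Hochberg adjustment over all 19874 genes tested. Genes past an adjusted p of 0.05 were called. The script was checked on simulated counts. Each library counted as a replicate. Libraries of a group differed with a mean chi-square per gene of 1.74 to 2.52, where counting error alone gives about 1. This takes reads as independent molecules, and whether duplicates were merged was not given, so it does not show separate cultures. An exact permutation test of 3 against 3 cannot go below 0.10 and was not used.

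The members and gene lists were chosen with earlier results of these data known. Named genes were the 7 members, NAT10, up to 4 called and non-overlapping genes of each list by absolute log2 fold change with the gene highest per length, tested genes within 500 kb of CDK15, and the 5 genes most alike CDK15; a few genes that this rule takes are not reported here. Alternatives were RLE, upper quartile and library size scaling, no filter (at least 1 count), a stricter filter (50 counts in 3 libraries), a replicate block, DESeq2 1.42.0, limma 3.58.1 voom and leaving out each library. Windows of 75 bases were matched to GENCODE release 29 transcripts on both strands with Python 3.11.15. The spans of CDK14, CDK16, CDK17, CDK18 and CCNY in that release differ from those in the count table. The annotation that was counted may thus hold other genes and transcripts.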

Additional observations from a re-analysis of the deposited data

How the results depend on the processing

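Over the 14 alternatives the log2 fold changes of all 7 genes kept their sign. CDK14, CDK16 and CCNYL1 passed the threshold in all 14 and CDK17 in none, while the log2 fold change of CDK14 ran from 0.81 to 1.04, of CDK16 from 0.32 to 0.39, of CCNYL1 from -0.28 to -0.21 and of CDK17 from 0.07 to 0.18. The call of CDK18 was lost with library size only (-0.13, adjusted p = 0.117), without a filter (-0.16, adjusted p = 0.0740) and with DESeq2 (-0.17, adjusted p = 0.134); leaving out 1 library gave -0.23 to -0.10. That of CCNY was lost with DESeq2 (0.27, adjusted p = 0.112), and leaving out 1 library gave 0.20 to 0.31. The cause was not tested.

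Among the lists, other CDK genes called lower numbered 2 with library size only and 2 to 5 with 1 library left out, against 4. The 14-3-3 genes called lower numbered 0 with library size only, against 1. Partner and substrate genes that rose numbered 3 with library size only, 2 with no filter or the stricter filter and 1 to 3 with 1 library left out, against 1. Wnt target genes that rose numbered 0 with DESeq2 and 0 to 1 with 1 library left out, against 1. The cause was not tested. The order of levels in CP+siNC was the same with library size only and without division by length. Of all genes, 6652 were called with DESeq2 and 8836 with library size only, 5050 of these higher and 3786 lower.

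Replicate numbers were shared between groups, but same-numbered libraries did not deviate together: the residual correlations were 0.03, 0.10 and -0.20 over the 10076 genes that averaged 10 CPM or more, and not every library correlated best with its own number. They share only a number. With the replicate block 8526 genes were called against 8771, and no call among the 7 genes changed. CDK14 and CDK15 rested on 27 to 108 counts per library, which limits their precision more than that of CDK16.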
